A study of Mus musculus with 12 samples.

Results

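The genes described here are the creatine kinases Ckb and Ckmt1 and the creatine synthesis enzymes Gatm and Gamt, 4 of the 24391 gene symbols in the deposited mouse colon tables. They were found by symbol and selected on their FPKM in these same libraries, so their levels and differences between groups are given as a description, with no separate test. Where the threshold of the fit over all genes is named for them, it describes their place among those genes and is not a test of them. All 4 passed the filter on low values (at least 4 libraries at 1 FPKM or above), as did 12052 genes in all. FPKM is the number of reads of a gene corrected for its length and for how deeply the library was read. The RNA came from colon epithelial cells of C57BL/6 mice aged 18 weeks, in 3 groups of 4 libraries. The control group carried no induction by the labels, the AOM/DSS group had received azoxymethane (AOM), a colon carcinogen, and dextran sulfate sodium (DSS), which inflames the colon, and the curcumin group had received both agents and curcumin, a plant polyphenol. No genetic change is named for any group. Doses and schedules were not given in the sources used here. Tumours of the right colon and the proximal segment were taken out before the mucosa was scraped, so the libraries hold scraped mucosa and not dissected tumour. No label ties a library to an animal of its own, so p-values measure the spread between these samples, which may be technical.

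Creatine kinases move a phosphate group between ATP and creatine, which gives cells a reserve of high-energy phosphate and carries it from mitochondria to sites that use ATP. Ckb encodes the cytosolic brain-type kinase and Ckmt1 the ubiquitous mitochondrial kinase of the intermembrane space, while Ckm and Ckmt2 encode the cytosolic and mitochondrial kinases of muscle. Gatm makes guanidinoacetate from arginine and glycine, Gamt methylates it to creatine, and Slc6a8 imports creatine from outside the cell. In the intestine, creatine kinase has been placed near the apical junctions and the brush border of epithelial cells, and hypoxia-inducible factors have been tied to its expression.

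The stretch just before the transcription start is shown for each of the 4 genes, since they share a pathway and differ widely in level. The 120 bases before the start are written 5′ to 3′ along the gene, from RefSeq on GRCm38.p6, with capitals for matches on either strand. The motifs searched were the TATA box with letters TATAAA, the CCAAT box by its own name, the GC box with letters GGGCGG, the hypoxia response core with letters ACGTG, and the estrogen-related receptor site with letters AAGGTCA.
Ckb, chr12:111672339-111672458, minus strand: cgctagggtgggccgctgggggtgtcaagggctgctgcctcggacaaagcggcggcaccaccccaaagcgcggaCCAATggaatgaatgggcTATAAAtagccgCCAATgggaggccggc
Ckmt1, chr2:121357656-121357775, plus strand: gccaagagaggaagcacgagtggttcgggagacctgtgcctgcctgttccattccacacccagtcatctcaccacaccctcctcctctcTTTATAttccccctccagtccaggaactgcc
Gatm, chr2:122611278-122611397, minus strand: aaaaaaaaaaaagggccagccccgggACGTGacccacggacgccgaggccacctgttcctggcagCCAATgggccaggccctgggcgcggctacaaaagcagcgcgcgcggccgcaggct
Gamt, chr10:80261013-80261132, minus strand: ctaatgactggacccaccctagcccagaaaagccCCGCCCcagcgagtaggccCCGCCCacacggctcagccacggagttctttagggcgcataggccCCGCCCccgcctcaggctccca
The Ckb window held TATAAA 28 bases before the start and CCAAT at 46 and at 16 bases. Of 32851 mouse promoter windows of 250 bases before the start, 12.4% held TATAAA and 33.8% held CCAAT. The first of the 2 Ckmt1 windows in the table held TATAAA on the reverse strand, written TTTATA, at 31 bases, and AAGGTCA on the reverse strand at 179 bases, beyond the stretch shown. AAGGTCA was in 4.08% of the windows. The Gatm window held ACGTG at 94 bases, a motif of 16.6% of windows, and CCAAT at 55 bases and, on the reverse strand, at 190 bases. The second Ckmt1 window, not shown, held CCAAT on the reverse strand at 242 bases. The Gamt window had no TATAAA and held GGGCGG on the reverse strand, written CCGCCC, at 86, 67 and 22 bases, a motif of 32.7% of windows. ACGTG was not found in the 250 bases before the start of Ckb, Ckmt1 or Gamt. A match is a description of letters and not a bound site, and none of the matches overlapped another.

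Reads assigned to genes, recovered from the FPKM steps, ran from 5567988 to 15968416 per library. All 8 epithelial markers, among them Epcam, Krt20 and Vil1, were above 0 in every group, with a summed FPKM of 5737 to 8709 in controls, 5432 to 8187 in AOM/DSS and 5406 to 9511 in curcumin libraries. The libraries stood apart in the GC content of the genes they favoured: 5 leaned to GC-rich genes (control replicate 0, and replicates 0 and 1 of both the AOM/DSS and the curcumin group) and 7 to AT-rich ones. Values within these classes are given beside the results they touch, and only 1 control is GC-rich. In scraped tissue, fewer cells of a type and less RNA per cell cannot be told apart.

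**Figure D1:**
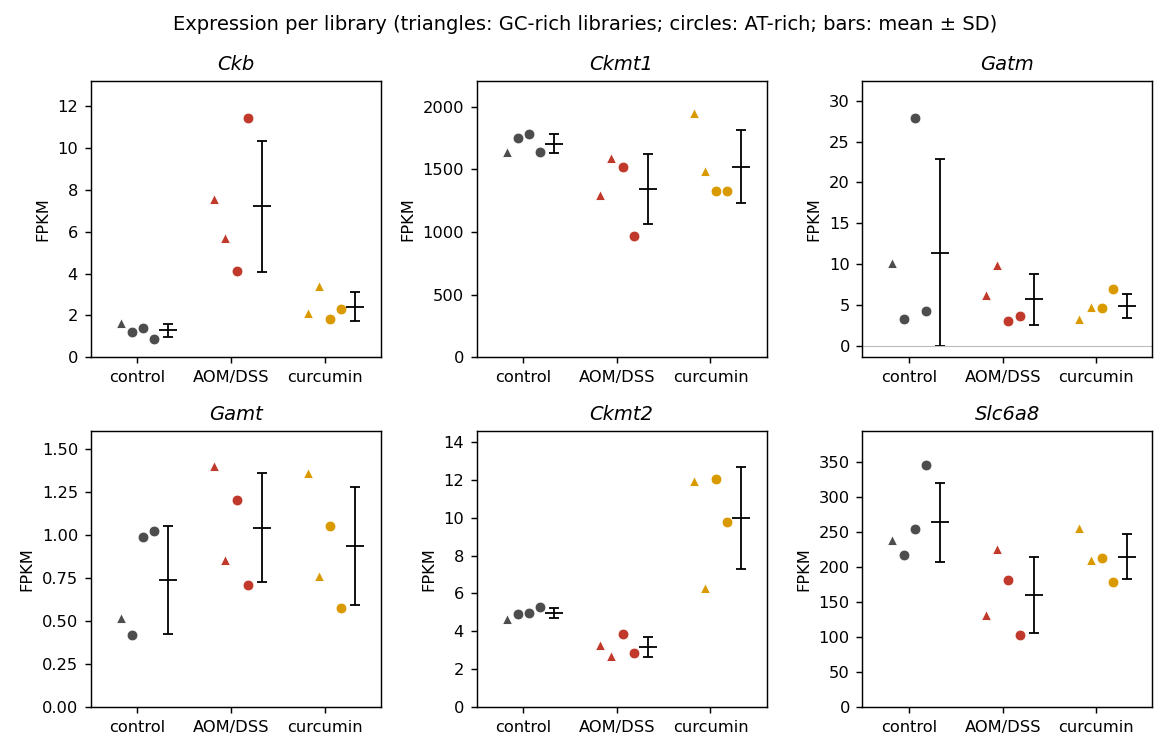
FPKM of Ckb, Ckmt1, Gatm and Gamt, and of Ckmt2 and Slc6a8, in each of the 12 libraries by group, with the mean and SD as bars, triangles for GC-rich and circles for AT-rich libraries, and a separate linear axis per gene. The 4 AOM/DSS libraries lie between 4.13 and 11.4 FPKM for Ckb, above every control and curcumin library, and Ckmt1 lies between 970 and 1946 FPKM in all 12.

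Ckb, the cytosolic kinase, was scarce in control mucosa, several times higher after AOM/DSS and in between with curcumin. Its FPKM in the 4 controls, replicates 0 to 3, was 1.64, 1.20, 1.41 and 0.871. It was 7.58, 5.69, 4.13 and 11.4 in the AOM/DSS libraries, and 2.10, 3.39, 1.85 and 2.32 in the curcumin libraries. The groups did not overlap in any pairing: the lowest AOM/DSS library stood above the highest curcumin library, and the lowest curcumin library above the highest control. The mean was 1.28 ± 0.328 FPKM (SD, n = 4) in controls, 7.21 ± 3.14 in AOM/DSS and 2.41 ± 0.681 in curcumin libraries. The ratio of means was 5.63 for AOM/DSS over control, 0.335 for curcumin over AOM/DSS and 1.89 for curcumin over control. As differences of log2(FPKM + 1), a scale on which low genes seem to move less than they do, these were 1.78, -1.21 and 0.57, each with an SE of 0.24. The first pair of differences share the AOM/DSS libraries, so a high AOM/DSS mean enters both.

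The depth behind Ckb was small, with 79 reads over the 4 controls, 505 over the AOM/DSS libraries and 179 over the curcumin libraries. The thinnest value was control replicate 1, where 9 reads gave 1.20 FPKM with an exact Poisson 95% interval of 0.548 to 2.28. The thickest was AOM/DSS replicate 3, where 252 reads gave an interval of 10.1 to 12.9 FPKM. These intervals cover counting error only. Within the GC-rich libraries the mean FPKM of Ckb was 1.64 in the 1 control, 6.64 in AOM/DSS and 2.74 in curcumin. Within the AT-rich libraries it was 1.16, 7.77 and 2.08, so the order of the groups was the same in both classes. The exons of Ckb are 62.5% GC and share no base with another gene.

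AOM/DSS replicate 3, the library with the highest Ckb, also had the highest summed FPKM of several marker lists. Its sum of 8 smooth muscle markers was 37.2, against 18.7 to 22.7 in the other AOM/DSS libraries. Its fibroblast sum was 22.5, against 2.47 to 5.41 in the same libraries. Its sums of 8 enteric neuron and glia markers, 3.94, and of macrophage markers, 56.3, were also the highest. Its B and plasma cell, T cell, red blood cell and endothelial sums were not the highest of all libraries. AOM/DSS replicate 0 had the next highest Ckb, 7.58 FPKM. Its sums were the lowest of its group for smooth muscle (18.7), neurons and glia (0.401) and macrophages (16.3). The same held for B and plasma cells (15.9), T cells (3.24) and red blood cells (10.4), but not for fibroblasts (5.41) or endothelium (6.34). Over the groups, smooth muscle sums were 27.4 to 33.6 in controls, 18.7 to 37.2 in AOM/DSS and 16.1 to 21.2 in curcumin libraries, where 1 of the 8 was at 0 throughout. Neuron and glia sums were 1.08 to 3.78, 0.401 to 3.94 and 0.871 to 2.19, with 1, 3 and 2 of the 8 markers at 0 throughout a group. Sums for B and plasma cells ran from 10.1 to 35.9 in controls, from 15.9 to 102.7 in AOM/DSS and from 3.21 to 23.8 in curcumin libraries, with none of 6 markers at 0. Macrophage sums were 7.55 to 46.6, 16.3 to 56.3 and 4.13 to 29.2 with none of 7 at 0, and T cell sums were 4.25 to 5.74, 3.24 to 17.0 and 2.38 to 4.17 with none of 6 at 0. Fibroblast sums were 0.707 to 12.4, 2.47 to 22.5 and 0.344 to 4.46, red blood cell sums 33.6 to 181, 10.4 to 182 and 15.3 to 21.2, and endothelial sums 4.38 to 11.4, 2.72 to 7.38 and 4.71 to 5.76, with no marker of these 3 lists at 0 throughout a group. The mean endothelial sum was 5.33 FPKM in curcumin and 5.21 in AOM/DSS libraries. All the other sums given here, smooth muscle and neurons and glia included, had lower means in curcumin than in AOM/DSS libraries, as Ckb did. Between AOM/DSS and control, where Ckb was higher in AOM/DSS, the means went both ways. Lower in AOM/DSS were smooth muscle (24.6 against 29.5 in controls) and neurons and glia (2.17 against 2.24). So were red blood cells (86.8 against 92.5) and endothelium (5.21 against 6.60). Higher in AOM/DSS were fibroblasts (8.24 against 6.59), macrophages (38.0 against 25.6), B and plasma cells (55.2 against 23.6) and T cells (8.45 against 4.94). The part of these cell types in the Ckb values was not tested. Most of these markers are low: of the smooth muscle list 4 of 8 passed the filter and were tested, of neurons and glia 1 of 8, of B and plasma cells 6 of 6, of macrophages 5 of 7, of T cells 3 of 6, of fibroblasts 2 of 6, of red blood cells 3 of 4 and of endothelium 2 of 5, and none of those tested passed the threshold in any comparison.

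Ckmt1, the mitochondrial kinase, was among the most abundant transcripts of the tissue in all 3 groups. Its mean was lower in AOM/DSS than in control libraries, a difference that did not pass limma's threshold. Its SD was wider in AOM/DSS libraries (279 FPKM) than in controls (75.9 FPKM). It read 1642, 1752, 1783 and 1635 FPKM in controls, 1295, 1586, 1522 and 970 in AOM/DSS and 1946, 1484, 1325 and 1330 in curcumin libraries. All 4 AOM/DSS libraries stood below all 4 controls, while the curcumin libraries overlapped both groups. By FPKM it ranked between 6 and 21 of 24391 symbols in controls, between 11 and 32 in AOM/DSS and between 11 and 23 in curcumin libraries. The means were 1703 ± 75.9, 1343 ± 279 and 1521 ± 293 FPKM (SD, n = 4). The log2 differences were -0.37 for AOM/DSS minus control, 0.19 for curcumin minus AOM/DSS and -0.18 for curcumin minus control, each with an SE of 0.18. Without AOM/DSS replicate 3 the first of these was -0.22. The values rest on 14142 to 39514 reads per library, so counting error is small beside the spread. In the GC-rich class the mean FPKM was 1642 in the 1 control, 1441 in AOM/DSS and 1715 in curcumin, and in the AT-rich class it was 1724, 1246 and 1327.

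Set side by side per length, Ckmt1 made up 98.5% to 99.7% of the summed FPKM of the 4 creatine kinases in every library. Ckb made up 0.0749% on average in controls, 0.592% in AOM/DSS and 0.161% in curcumin libraries. The sum of the 4 kinases was 1709 ± 75.9 FPKM (SD, n = 4) in controls, 1354 ± 276 in AOM/DSS and 1534 ± 293 in curcumin libraries. With Ckmt1 at such a share, the sum could only follow Ckmt1, whatever Ckb did at these levels. Across the 12 libraries, Ckb and Ckmt1 had a Pearson r of -0.72 on the log2(FPKM + 1) scale, and -0.60 after the group means were taken away. AOM/DSS replicate 3 held both the highest Ckb, 11.4 FPKM, and the lowest Ckmt1, 970 FPKM, and r without it was not computed. These r values are a description over libraries of 3 groups, and within a library both genes share the same scaling.

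Gatm, the first enzyme of synthesis, was lower in the mean of AOM/DSS and curcumin libraries than in controls, but 1 control carried that difference. It read 10.2, 3.26, 27.9 and 4.30 FPKM in controls, 6.27, 9.88, 3.00 and 3.69 in AOM/DSS and 3.31, 4.69, 4.60 and 6.90 in curcumin libraries. Control replicate 2 stood far above the rest, with 918 of the 1330 control reads, and the groups overlapped in every pairing. The means were 11.4 ± 11.4, 5.71 ± 3.11 and 4.88 ± 1.49 FPKM (SD, n = 4). The log2 differences were -0.58, -0.11 and -0.69 in the same order as above, each with an SE of 0.50. Without control replicate 2, AOM/DSS minus control was -0.03 and curcumin minus control was -0.14. In the GC-rich class the mean FPKM was 10.2 in the 1 control, 8.07 in AOM/DSS and 3.999 in curcumin, and in the AT-rich class it was 11.8, 3.34 and 5.75. The curcumin minus AOM/DSS difference thus turned with the class, from -0.84 on the log2 scale in GC-rich libraries to 0.62 in AT-rich ones.

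Gamt, the methyltransferase that completes creatine, was near the limit of detection in all 3 groups. It read 0.515, 0.417, 0.988 and 1.02 FPKM in controls, 1.40, 0.855, 1.20 and 0.709 in AOM/DSS and 1.36, 0.759, 1.05 and 0.574 in curcumin libraries. The groups overlapped in every pairing, with means of 0.736 ± 0.314, 1.04 ± 0.317 and 0.936 ± 0.343 FPKM (SD, n = 4). The log2 differences were 0.24, -0.08 and 0.16, each with an SE of 0.19. Each library held between 2 and 16 Gamt reads, and the 2 reads of control replicate 1 allow 0.0505 to 1.51 FPKM (exact Poisson, 95%), a range that spans every Gamt value measured. The groups rest on 32, 43 and 44 reads in all. In the GC-rich class the mean FPKM was 0.515 in the 1 control, 1.13 in AOM/DSS and 1.06 in curcumin, and in the AT-rich class it was 0.809, 0.955 and 0.813.

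**Figure D2:**
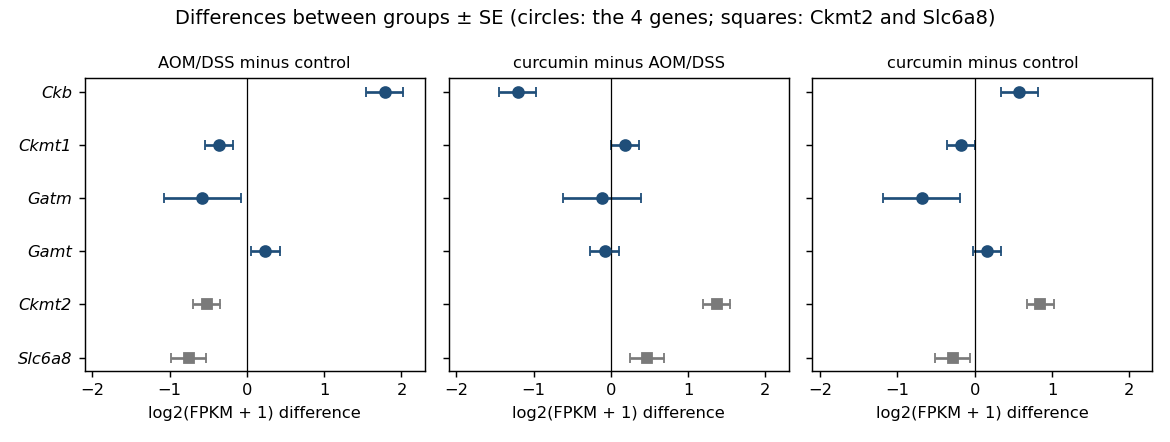
Differences of group means on the log2(FPKM + 1) scale with their SE, for the 4 genes (circles) and for Ckmt2 and Slc6a8 (squares), in each of the 3 comparisons. Ckb stands at 1.78 in AOM/DSS minus control and -1.21 in curcumin minus AOM/DSS, while Ckmt1, Gatm and Gamt lie between -0.69 and 0.24 in all 3.

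In AOM/DSS minus control, 1 of the 4 genes, Ckb, passed limma's threshold (adjusted p below 0.05 over all 12052 genes), where 1.27% of genes did so, 0.456% higher and 0.813% lower. Ckb and Ckmt1 did not overlap between the groups, Ckb higher and Ckmt1 lower, where 6.02% of genes did not, 2.38% higher and 3.63% lower. In curcumin minus AOM/DSS, Ckb was again the 1 gene past the threshold, passed by 1.08% of genes (0.73% higher, 0.348% lower), and the 1 gene whose groups did not overlap, as for 9.22% of genes (4.95% higher, 4.27% lower). In curcumin minus control none of the 4 passed, as 0.141% of genes did (0.0913% higher, 0.0498% lower), and Ckb alone did not overlap, as for 8.26% of genes (3.72% higher, 4.55% lower). These shares stand beside the counts only, since the 4 genes were chosen on these values. The place of Ckb past the threshold in curcumin minus AOM/DSS was lost without any one of 5 libraries, namely curcumin replicates 0, 2 and 3 and AOM/DSS replicates 0 and 3, with log2 differences from -1.20 to -0.98 in those fits. In AOM/DSS minus control the log2 difference without any one library ran from 1.56 to 1.98.

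Ckmt2, the mitochondrial kinase of heart and skeletal muscle, had its highest values with curcumin and is the 1 kinase outside the 4 genes that passed the filter, in a list drawn up with results of these data known. It read 4.64, 4.90, 4.97 and 5.31 FPKM in controls, 3.29, 2.71, 3.87 and 2.84 in AOM/DSS and 11.9, 6.27, 12.1 and 9.77 in curcumin libraries. No group overlapped another: the curcumin libraries were highest and the AOM/DSS libraries lowest. In curcumin minus AOM/DSS it rose by 1.37 on the log2 scale (SE 0.17, limma adjusted p = 0.00341), a ratio of means of 3.15. In curcumin minus control the log2 difference was 0.85 (limma adjusted p = 0.0795; 0.0237 without curcumin replicate 1), and in AOM/DSS minus control it was -0.52 (adjusted p = 0.196). Within the GC-rich libraries its mean FPKM was 4.64, 3.00 and 9.10 in the 1 control, AOM/DSS and curcumin, and within the AT-rich libraries 5.06, 3.36 and 10.9. Of its exon bases on GRCm38, 84 (5.65%) are shared with 1700119I11Rik on the other strand, and since the strand setting of the counting is not stated, Ckmt2 reads cannot be told from that gene's there.

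Of the other genes of striated muscle, Myh1 and Myh2, fast myosins of skeletal muscle, were at 0 in all 12 libraries, and Tnnt3, Actn2 and Ttn reached at most 0.0778 FPKM. The sum of the 6 striated muscle markers that are not creatine kinases was 0.928 to 2.74 FPKM in controls, 2.46 to 4.33 in AOM/DSS and 2.57 to 4.80 in curcumin libraries. Acta1, skeletal actin, made up nearly all of it, at a level like that of Ckmt2 in AOM/DSS libraries. The part of muscle in the Ckmt2 values was not tested. Ckm, the muscle cytosolic kinase, had 1 read in 1 library of each group and was not tested.

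**Figure D3:**
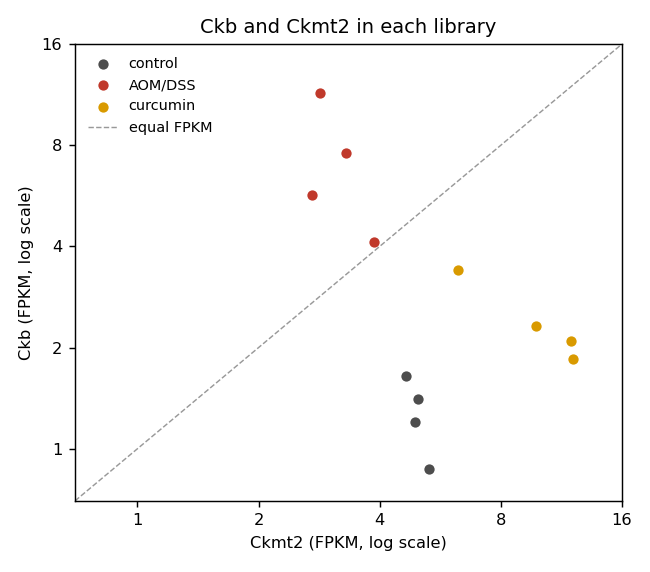
FPKM of Ckb against FPKM of Ckmt2 in each of the 12 libraries, on log axes, with a dashed line where the FPKM are equal. The 4 AOM/DSS libraries lie above the line, with Ckb between 1.07 and 4.02 times Ckmt2, and the 8 other libraries below it.

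The ratio of Ckb to Ckmt2 FPKM was 0.164 to 0.354 in controls, 1.07 to 4.02 in AOM/DSS and 0.153 to 0.541 in curcumin libraries. Curcumin and control ranges thus overlapped in the ratio, though the levels of both genes were higher with curcumin. The ratio was formed after the values were seen and carries no test. Both mitochondrial kinases were lower in all AOM/DSS libraries than in all controls, by 0.37 for Ckmt1 and 0.52 for Ckmt2 on the log2 scale, and neither passed the threshold. Of all genes tested, 3.63% lay below all controls in the same way, and both kinases were picked with results of these data known.

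The promoter of Ckmt2 is shown because it is the kinase outside the 4 genes whose difference passed the threshold. Its window held CCAAT on the reverse strand, written ATTGG, at 69 bases, CCAAT at 145 bases, beyond the stretch shown, and GGGCGG on the reverse strand at 46 bases, with no TATAAA.
Ckmt2, chr13:91876886-91877005, minus strand: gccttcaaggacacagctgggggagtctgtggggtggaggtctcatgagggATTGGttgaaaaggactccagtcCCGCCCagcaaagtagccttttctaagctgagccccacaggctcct

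Slc6a8, the creatine transporter, was the second most abundant gene of creatine handling. It read 239, 217, 254 and 345 FPKM in controls, 131, 225, 181 and 103 in AOM/DSS and 256, 209, 213 and 178 in curcumin libraries. The mean was 264 ± 56.3 in controls, 160 ± 53.9 in AOM/DSS and 214 ± 32.1 in curcumin libraries (SD, n = 4), and AOM/DSS replicate 1 lay within the range of both other groups. The log2 differences were -0.76 (SE 0.23, limma adjusted p = 0.141), 0.47 (adjusted p = 0.364) and -0.29 (adjusted p = 0.641), and none passed the threshold. Across the 12 libraries its r was 0.83 with Ckmt1 and -0.85 with Ckb, and 0.74 and -0.72 after group means were taken away. Within the GC-rich libraries its mean FPKM was 239 in the 1 control, 178 in AOM/DSS and 233 in curcumin, and within the AT-rich libraries 272, 142 and 196. AOM/DSS replicate 3 had the lowest Slc6a8, the lowest Ckmt1 and the highest Ckb of all libraries. Per length, mean transporter FPKM stood far above that of Gatm and Gamt in every group.

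Around creatine, 86 further genes of 9 lists were followed, of which 73 were tested. In AOM/DSS minus control, 3 rose and 2 fell; with curcumin minus AOM/DSS, 1 rose and 1 fell; in curcumin minus control none passed limma's threshold. An unadjusted p below 0.05 was reached by 24 of the 73 (32.9%) in AOM/DSS minus control, 11 (15.1%) in curcumin minus AOM/DSS and 18 (24.7%) in curcumin minus control, and by 13.5%, 14.5% and 12.2% of all genes tested. The median log2 difference of the 73 tested genes was -0.02, 0.06 and -0.002 in the 3 comparisons, beside 0.02, -0.01 and 0.01 over all genes tested. The share of listed genes called is thus to be read beside the background shares above, and the lists were drawn up with results of these data known.

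**Figure D4:**
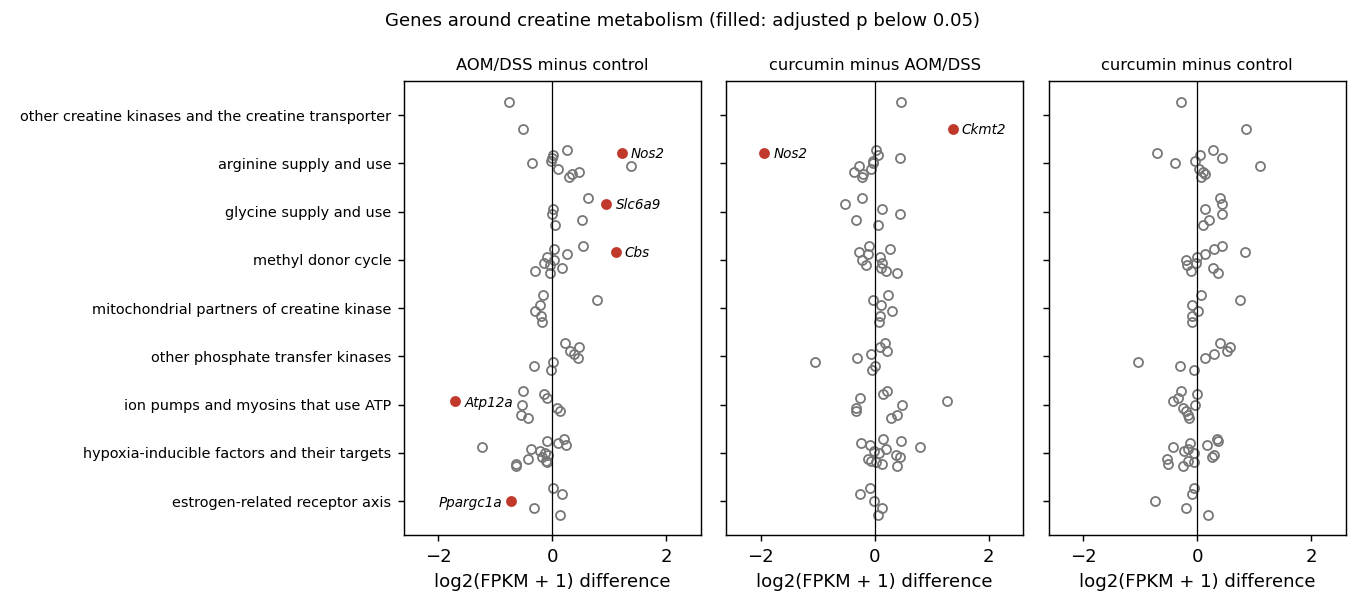
Log2(FPKM + 1) differences of the 73 tested genes of the 9 lists around creatine metabolism, 1 point per gene and 1 panel per comparison, with filled and named points at an adjusted p below 0.05. The AOM/DSS panel has 5 named genes, 3 to the right and 2 to the left of 0, the middle panel has Ckmt2 at 1.37 and Nos2 at -1.94, and the last panel has none.

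Arginine, glycine and the methyl group are what Gatm and Gamt draw on. Each of these lists held 1 gene called higher in AOM/DSS minus control, where 0.456% of all genes tested were. A link between these genes and creatine synthesis was not tested. Of 11 tested genes of arginine supply and use, Nos2, the inducible nitric oxide synthase, was the 1 called. It read 1.41, 0.444, 0.863 and 2.18 FPKM in controls, 4.14, 5.34, 2.82 and 3.93 in AOM/DSS and 0.616, 0.103, 0.0932 and 0.468 in curcumin libraries. AOM/DSS libraries stood above all others. It rose by 1.22 with AOM/DSS (SE 0.24, limma adjusted p = 0.0315) and fell by 1.94 with curcumin against AOM/DSS (SE 0.24, adjusted p = 0.00341). The rise lost its call without any one of control replicates 0, 1 and 2 and AOM/DSS replicates 0, 1 and 3 (adjusted p from 0.0586 to 0.0802). The medians of the arginine list were 0.26, -0.06 and 0.07. Arg2, mitochondrial arginase, differed most in curcumin minus control, by 1.10 (adjusted p = 0.293), with 3.91 ± 1.22 FPKM against 1.39 ± 1.12 (SD, n = 4).

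Of 6 tested genes of glycine supply and use, Slc6a9, the glycine transporter GLYT1, rose with AOM/DSS. Its FPKM was 3.86, 3.49, 3.27 and 3.91 in controls, 8.38, 7.29, 6.79 and 9.52 in AOM/DSS and 5.65, 4.63, 4.62 and 6.28 in curcumin libraries. No group overlapped another, and the order of the groups was that of Ckb. The log2 difference was 0.95 for AOM/DSS minus control (SE 0.13, limma adjusted p = 0.00419) and -0.51 for curcumin minus AOM/DSS (adjusted p = 0.0858). Amt, a subunit of the glycine cleavage system, differed by 0.45 in the latter (adjusted p = 0.385). The glycine list had medians of 0.28, -0.08 and 0.30.

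Of 11 tested genes of the methyl donor cycle, Cbs, which joins homocysteine to serine, rose with AOM/DSS. It read 13.0, 9.68, 9.77 and 8.46 FPKM in controls, 34.8, 18.5, 19.3 and 22.8 in AOM/DSS and 16.3, 21.9, 18.8 and 19.3 in curcumin libraries. AOM/DSS and curcumin libraries stood above all controls and overlapped each other. The log2 difference with AOM/DSS was 1.12 (SE 0.19, limma adjusted p = 0.0124), and 0.0549 was its adjusted p without control replicate 3. In curcumin minus control it was 0.85 (adjusted p = 0.101; 0.0446 without AOM/DSS replicate 0). Mat2a, which makes S-adenosylmethionine, and Cth, next after Cbs, differed by 0.39 and 0.27 in curcumin minus AOM/DSS (adjusted p = 0.268 and 0.624), and Pemt, a methyltransferase of phospholipids, by 0.44 in curcumin minus control (adjusted p = 0.370). The list medians were 0.02, 0.10 and 0.14.

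Mitochondrial creatine kinase works beside the outer membrane channels and the ATP carriers, and none of 6 such genes passed the test in any comparison. Slc25a4, an ADP/ATP carrier, had 7.38 ± 1.39 FPKM in controls, 13.7 ± 4.51 in AOM/DSS and 13.0 ± 1.57 in curcumin libraries (SD, n = 4). Its log2 difference was 0.78 with AOM/DSS (SE 0.19, limma adjusted p = 0.0663; 0.0365 without AOM/DSS replicate 2) and 0.75 in curcumin minus control (adjusted p = 0.138). Slc25a5, the more abundant carrier, differed by 0.23 in curcumin minus AOM/DSS (adjusted p = 0.544). Of the channels, Vdac3 differed by -0.30 with AOM/DSS and 0.31 in curcumin minus AOM/DSS (adjusted p = 0.598 and 0.57), and Vdac1 by -0.10 in curcumin minus control (adjusted p = 0.764). The medians of the list were -0.19, 0.11 and -0.04.

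None of 8 tested kinases that pass phosphate between other nucleotides was called. Ak4, a mitochondrial adenylate kinase, had 7.40 ± 1.89, 7.76 ± 3.44 and 3.09 ± 1.00 FPKM (SD, n = 4) in control, AOM/DSS and curcumin libraries. All 4 curcumin libraries were below all others, with log2 differences of -1.05 against AOM/DSS (limma adjusted p = 0.0794) and -1.04 against control (adjusted p = 0.137). Nme4 and Nme1, nucleoside diphosphate kinases, differed by 0.48 and 0.46 with AOM/DSS (adjusted p = 0.384 and 0.537). Nme4 differed by 0.57 in curcumin minus control (adjusted p = 0.344), and Nme1 by -0.32 in curcumin minus AOM/DSS (adjusted p = 0.682). List medians were 0.26, -0.02 and 0.22.

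Of 9 tested ion pumps and myosins that use ATP, Atp12a, the proton pump of the distal colon that takes up potassium, fell with AOM/DSS. It read 369, 191, 325 and 373 FPKM in controls, 124, 159, 78.5 and 47.7 in AOM/DSS and 233, 161, 245 and 282 in curcumin libraries. AOM/DSS libraries stood below all others. The log2 difference was -1.70 (SE 0.33, limma adjusted p = 0.0295), and the call was lost without any one of control replicates 0, 2 and 3 and AOM/DSS replicates 2 and 3 (adjusted p from 0.0517 to 0.116). It was 1.27 in curcumin minus AOM/DSS (adjusted p = 0.0965; 0.0423 without AOM/DSS replicate 1) and -0.43 in curcumin minus control (adjusted p = 0.638). Atp2b1, a calcium pump, differed by 0.49 in curcumin minus AOM/DSS (adjusted p = 0.231) and Myh9, non-muscle myosin, by -0.34 in curcumin minus control (adjusted p = 0.469). The medians were -0.43, 0.22 and -0.20.

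None of 15 hypoxia-inducible factors and targets was called in any comparison. Bnip3, a hypoxia target on mitochondria, had 51.2 ± 9.72, 23.0 ± 10.6 and 37.4 ± 4.58 FPKM (SD, n = 4) in control, AOM/DSS and curcumin libraries. Its log2 difference with AOM/DSS was -1.23 (SE 0.28, limma adjusted p = 0.0539; 0.0200 without AOM/DSS replicate 1), with all 4 AOM/DSS libraries below all 4 controls, and with curcumin against AOM/DSS it was 0.80 (adjusted p = 0.212). Hif1a differed by -0.64 with AOM/DSS (adjusted p = 0.322) and Ndrg1 by 0.46 in curcumin minus AOM/DSS (adjusted p = 0.158). Egln3, a prolyl hydroxylase of these factors, and Epas1, which encodes HIF-2 alpha, differed by -0.54 and -0.51 in curcumin minus control (adjusted p = 0.460 and 0.396). The list medians were -0.12, 0.13 and -0.13, with 3, 10 and 5 of the 15 genes higher in the mean.

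Of 5 tested genes of the estrogen-related receptor axis, which drives genes of mitochondria, Ppargc1a, the coactivator PGC-1 alpha, fell with AOM/DSS. It read 18.9, 17.9, 13.0 and 20.02 FPKM in controls, 11.0, 8.62, 11.2 and 9.73 in AOM/DSS and 8.37, 9.72, 10.3 and 11.8 in curcumin libraries. Both treated groups lay below all controls. The log2 difference was -0.72 (SE 0.15, limma adjusted p = 0.0358) in AOM/DSS minus control, lost without any one of curcumin replicates 1 and 2, the control replicates 0, 1 and 3 or the same 3 numbers of AOM/DSS (adjusted p from 0.0577 to 0.139). It was -0.73 in curcumin minus control (adjusted p = 0.0795; 0.0312 without control replicate 2). Ppargc1b, a related coactivator, and Esrrg, one of the receptors, differed by -0.26 and 0.13 in curcumin minus AOM/DSS (adjusted p = 0.755 and 0.880), and Esrra by 0.20 in curcumin minus control (adjusted p = 0.860). The list medians were 0.02, -0.02 and -0.09.

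The genes whose log2(FPKM + 1) ran most like each of the 4 over the 12 libraries were drawn from 10550 genes with a mean of at least 2 FPKM (10551 for Gamt), and r is a description with no test. For Ckb they were Sidt1 (r = 0.92), Slc6a9 (0.92), Mmp28 (0.91) and Srprb (0.90), whose r after removal of group means was 0.52, 0.47, 0.27 and 0.65. The likeness to Ckb thus lay in good part in the order of the group means: Mmp28, a matrix metalloproteinase, averaged 0.915 FPKM in controls, 3.85 in AOM/DSS and 1.65 in curcumin libraries. For Ckmt1 they were A330035P11Rik (0.94), Slc25a3 (0.93), Npc2 (0.91) and Gsn (0.90), with 0.95, 0.92, 0.92 and 0.89 after removal of group means, so these genes followed Ckmt1 within the groups. Slc25a3, the mitochondrial phosphate carrier, averaged 582, 504 and 549 FPKM, and is also a listed partner of mitochondrial creatine kinase. For Gatm they were Chtop (0.91), Pla2g5 (0.89), Ncald (0.88) and Sf3b2 (0.87), which follow a gene that 1 control dominates. For Gamt they were Rnf113a1 (0.85), Tnfsfm13 (0.76), Bet1l (0.76) and Tnfsf13 (0.73), of which Tnfsfm13 and Tnfsf13 share a locus.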

How the data were processed

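Total RNA from 12 libraries of scraped mouse colon epithelium, in 3 groups of 4 by the labels, was analysed from the deposited FPKM, 1 file per library with no header line. Per the submitters' processing notes reads were handled on genome build mm9 with R 3.4.0, featureCounts 1.5.1 and DESeq2 1.14.1 besides TopHat2 2.1.1, Picard and Bowtie2 2.2.6, whose roles are not stated. Strand setting and annotation are not given in the sources used here. The deposited FPKM of all 19233 genes above 0 were whole multiples of a step, within 0.001, which gave the reads behind each value.

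limma 3.58.1 (R 4.3.3) was run on log2(FPKM + 1) (eBayes with an intensity trend, 1 mean per group, all 12 libraries, 9 residual degrees of freedom). Genes that reached 1 FPKM in 4 libraries entered the fit, p-values were adjusted by Benjamini-Hochberg over all 12052, and the threshold was an adjusted p of 0.05. The procedure was tested on simulated data that had no GC classes and the same spread setting for all genes. That run does not cover the GC classes of these libraries. The 4 genes, the lists and the rule for genes named were chosen with earlier results of these data known. The rule named the 4 genes, Ckm, Ckmt2 and Slc6a8, then from each list and comparison up to 4 called genes, or the 2 largest differences where none was called, and the 4 genes most like each member. Likeness and library GC class (the sign of the correlation between a library's deviation from the mean library and gene GC content, known for 99.3% of tested genes) are descriptions. Promoters came from RefSeq on GRCm38.p6, matched by symbol for all of the 4 genes. Exon overlap and gene GC content came from GENCODE. No promoter of Slc6a8 and no protein sequence is shown.

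Alternatives were other pseudocounts and filters, other scalings, voom on recovered reads, GC corrections, a replicate block, only the groups compared, each GC class alone and each library left out. The labels number replicates alike in all groups without saying that a number marks a shared animal or batch.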

Additional observations from a re-analysis of the deposited data

How the results depend on the processing

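Genes called over the whole table numbered 153 in AOM/DSS minus control, 130 in curcumin minus AOM/DSS and 17 in curcumin minus control, and in the lists around creatine 5, 2 and 0. With only the groups compared in the fit the first pair of whole-table counts were 54 and 85 and the list count of AOM/DSS minus control was 1. With library GC class as a covariate the whole-table counts were 238, 272 and 40, and with each library's GC trend removed they were 239 in curcumin minus AOM/DSS and 28 in curcumin minus control. GC-rich libraries alone gave 7, 8 and 0 calls and AT-rich libraries alone 4, 1 and 0, and each class alone gave 0 list calls in AOM/DSS minus control and in curcumin minus AOM/DSS. With no filter the lists held 2 calls in AOM/DSS minus control and curcumin minus control had 7 over the whole table, against 11 with a pseudocount of 0.1. The 5 FPKM filter left 1 list call in curcumin minus AOM/DSS and leaves out Ckb and Gamt. With 1 library left out, counts ranged from 53 to 201, from 48 to 149 and from 4 to 35, and list counts from 2 to 5, from 2 to 3 and from 0 to 1. The classes alone hold fewer samples, and the cause of the other shifts was not tested.

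With the replicate number as a block, the counts were 82, 86 and 2, with 3 list calls in AOM/DSS minus control. Same-numbered libraries' deviations had correlations of -0.29 to 0.46 between control and AOM/DSS, -0.33 to 0.28 between control and curcumin, and 0.04, 0.35, 0.30 and 0.36 for replicates 0 to 3 of AOM/DSS and curcumin, where replicates 0 and 1 are GC-rich and 2 and 3 AT-rich in both groups. A library ran closest to its own number in 8 of 24 checks. Not every pair was over 0.1, so the numbers were not taken to pair the libraries. Under the block Ckb left the called genes of curcumin minus AOM/DSS and Atp12a (limma adjusted p = 0.0717) and Ppargc1a (adjusted p = 0.0726) those of AOM/DSS minus control, and no other named gene changed its call.

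Ckb in AOM/DSS minus control had log2 differences of 2.34 at a pseudocount of 0.1 and 2.44 with voom on recovered reads. It was not called in either GC class alone. In curcumin minus AOM/DSS its log2 differences ran from -1.57 to -0.98, and it was not called without the filter, with the block, with only the groups compared, with the GC trend removed, in either GC class or without any one of the 5 libraries named above. In AOM/DSS minus control, Nos2 was called in 12 of 24 alternatives and lost its call, besides the libraries named above and the GC classes, at a pseudocount of 0.1 (adjusted p = 0.119), without the filter (0.0562), with only the groups compared (0.0900) and with voom (0.0627). Atp12a lost it without the filter (0.0641) and with only the groups compared (0.0925), Ppargc1a in both (0.0557 and 0.0984) and at a common sum (0.105), and Cbs with only the groups compared (0.0565). Gamt moved to 0.49 in AOM/DSS minus control at a pseudocount of 0.1 and to 0.43 in curcumin minus control in GC-rich libraries. Ckmt2 in curcumin minus AOM/DSS and Slc6a9 in AOM/DSS minus control were called in 23 of 25 alternatives, all but the single GC classes. Of uncalled genes, Vdac3 in AOM/DSS minus control (0.0317), Esrrg in curcumin minus AOM/DSS (-0.0461) and Vdac1 in curcumin minus control (0.0719) turned sign in GC-rich libraries. Esrra in curcumin minus control turned with the GC covariate (-0.0403) and in AT-rich libraries (-0.204), and with 1 library left out it ran from -0.0157 to 0.433 and Esrrg from -0.00419 to 0.290. Adjusted p-values over the alternatives ran from 0.0237 to 0.537 for Ckmt2, 0.0446 to 0.644 for Cbs and 0.0312 to 0.521 for Ppargc1a in curcumin minus control, from 0.0423 to 0.534 for Atp12a in curcumin minus AOM/DSS, and from 0.0365 to 0.692 for Slc25a4, 0.0200 to 0.732 for Bnip3 and 0.00924 to 0.641 for Cbs in AOM/DSS minus control. No scaling moved the median of all genes by over 0.1. Depth limits Gamt and Ckb, with 2 to 16 and 9 to 252 reads per library.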

Other observations

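Ckmt2 and Slc6a8 were not among the 4 genes, and the genes most like them over the 12 libraries are given as values, picked after the data were seen. For Ckmt2 they were Cyp4f16 (r = 0.95), Cyp4f37 (0.94), Atraid (0.92) and Rbp2 (0.92), with r after removal of group means of 0.66, 0.73, 0.54 and 0.39. Cyp4f16, a fatty acid hydroxylase of the cytochrome P450 family, averaged 49.8 FPKM in controls, 37.8 in AOM/DSS and 90.3 in curcumin libraries. Rbp2, a cellular retinol-binding protein of enterocytes, averaged 44.5, 29.7 and 91.3 FPKM, the same order of groups as Ckmt2. For Slc6a8 they were Icosl (r = 0.95), Zfp385b (0.94), Tesk2 (0.94) and Pla2g4f (0.93), with 0.93, 0.89, 0.89 and 0.91 after removal of group means, so these genes followed the transporter within the groups. Tesk2, a protein kinase, averaged 36.8 FPKM in controls, 20.6 in AOM/DSS and 29.0 in curcumin libraries.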
